A study of Mus musculus with 11 samples.

Results

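The transcripts examined here were those of 10 genes, *Cdkn1a*, *Mdm2*, *Ccng1*, *Trp53inp1*, *Bax*, *Phlda3*, *Sesn2*, *Eda2r*, *Gdf15* and *Btg2*, chosen by symbol as targets of the transcription factor p53 in arrest, apoptosis and stress, with *Gdf15* as a stress cytokine. They are 10 of 46603 genes in the count table, and all 10 were among the 13880 genes with enough counts to be tested. Liver mRNA was sequenced from 11 male *ob/ob* mice, of which 7 received vehicle (carboxymethylcellulose) and 4 received INT-767, a semisynthetic bile acid that is an agonist of the receptors FXR and TGR5, at 10 mg/kg by gavage once daily for 8 weeks. Every mouse, the vehicle group included, was homozygous for the *Lep* ob mutation and therefore lacked leptin. All were 5 to 6 weeks old when the AMLN diet (a feed with added fructose and cholesterol and much fat) was started, had 15 weeks of it before dosing and stayed on it throughout, and each had a liver biopsy before treatment. There was no lean, chow-fed or leptin-sufficient group. The samples are therefore of 1 dose, 1 time and 1 sex in an obese model of steatohepatitis.

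p53 is kept low in unstressed cells because Mdm2, itself a p53 target, marks it for degradation. DNA damage, oncogene activity and other stresses free p53, which then turns on genes that stop the cell cycle, prepare the cell for apoptosis or adjust its metabolism. Several of these genes also answer to other factors, such as ATF4 in the integrated stress response, and in hepatocytes loss of Mdm2 or p21 (the product of *Cdkn1a*) is known to alter injury and regeneration.

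The letters near the start sites show which of these genes carry a p53 motif close to the promoter. RefSeq promoter windows (GRCm38.p6, 250 bases before to 50 after a start site) were found for 9 of the 10 genes, in 11 windows, and *Trp53inp1* was not searched. The p53 half-site consensus, a motif of 10 letters that reads the same on both strands, matched in windows of 4 genes and in 8.36% of all 32851 windows. The 4 stretches are shown with the half-sites in capitals. A stretch of the *Btg2* window follows, with its match to the cyclic AMP response element TGACGTCA in capitals.
*Cdkn1a*, chr17:29090886-29090957, plus strand: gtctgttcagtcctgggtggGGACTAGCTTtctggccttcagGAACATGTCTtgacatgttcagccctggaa
*Mdm2*, chr10:117710915-117710964, minus strand: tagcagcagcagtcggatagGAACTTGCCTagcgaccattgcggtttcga
*Ccng1*, chr11:40755442-40755491, minus strand: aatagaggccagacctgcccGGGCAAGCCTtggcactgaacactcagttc
*Bax*, chr7:45467070-45467119, minus strand: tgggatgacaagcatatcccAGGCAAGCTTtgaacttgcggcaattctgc
*Btg2*, chr1:134079294-134079341, minus strand: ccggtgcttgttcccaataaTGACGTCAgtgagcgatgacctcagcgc
*Cdkn1a* held 2 half-sites with 12 bases between them, and the other 3 genes held 1 each. The response element was in the window of *Btg2* only among the members and in 1.79% of all windows. The ATF4 element TGATGNAA (3.97% of all windows) and the AP-1 site TGANTCA (7.81%), searched on both strands, were in no member's window, and no member's window held more than 1 of these 4 motifs. A match describes the letters of the window and was not tested as a binding site.

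None of the 10 genes was called higher or lower with INT-767 by edgeR's quasi-likelihood test at an adjusted *p* under 0.05, where 9.72% of all tested genes were called (5.04% higher and 4.68% lower). At an unadjusted *p* under 0.05 there was 1 member, *Mdm2*, against 32.9% of all tested genes, and limma-voom called 0 members (8.10% of all tested genes). DESeq2 called 2, *Mdm2* lower and *Cdkn1a* higher, where it called 20.3% of all tested genes (10.4% higher and 9.86% lower), so that the share of members was near its background. Fold changes are log2 values with vehicle as the reference. They were above 0 for 4 members (49.4% of all tested genes) and below 0 for 6, with a median of -0.32 against -0.01 over all tested genes. *Mdm2* was the single member whose groups did not overlap, with every INT-767-treated liver below every vehicle liver, a separation that 7.51% of tested genes had (3.87% higher and 3.65% lower). In the bulk liver RNA used here, fewer cells of a type and less RNA per cell cannot be told apart. Levels are CPM, the reads of a gene relative to those of its library, scaled by edgeR's TMM factors, and means are given ± SD.

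Some livers stood apart before any comparison was made. Vehicle mouse 3 was the highest of the 7 vehicle mice in 5 of the 10 members, *Cdkn1a*, *Gdf15*, *Btg2*, *Mdm2* and *Bax*, whereas it was highest in 14.6% of all tested genes. In *Cdkn1a* it stood at 6.31 times, in *Btg2* at 8.62 times and in *Gdf15* at 14.04 times the median of the other 6 vehicle mice. Vehicle mouse 1 was highest in *Ccng1*, *Trp53inp1*, *Phlda3* and *Eda2r* and in 31.4% of all tested genes. INT-767-treated mouse 4 was highest of its group in *Ccng1*, *Bax*, *Phlda3* and *Eda2r* and in 35.6% of all tested genes. For the members in which one of these mice was highest, values without it are given below.

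**Figure D1:**
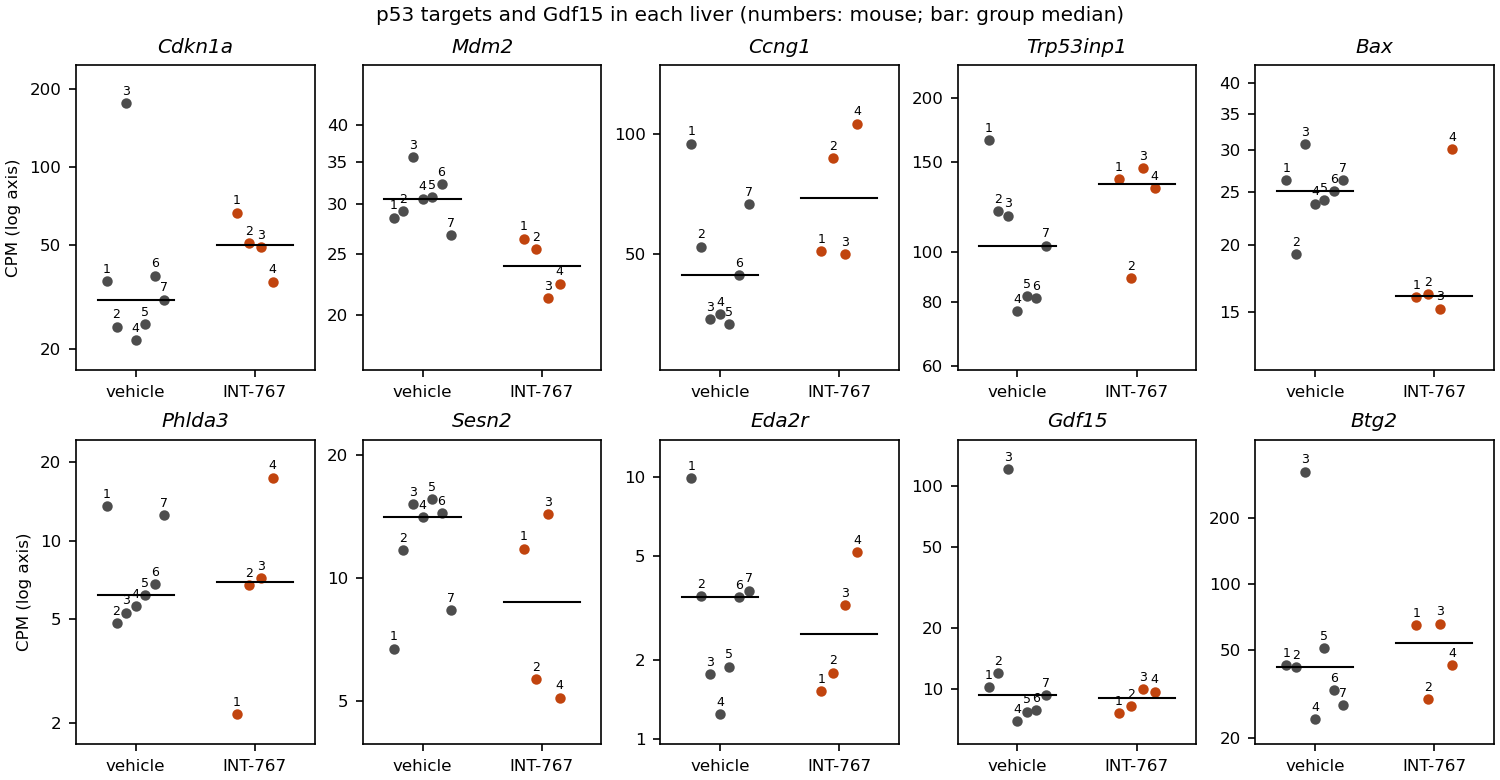
CPM (log axis) of the 10 genes in each of 7 vehicle and 4 INT-767-treated livers; points are mice with their number, and bars are group medians. Vehicle mouse 3 lies far above the other vehicle mice in *Cdkn1a*, *Gdf15* and *Btg2*, and only *Mdm2* has groups that do not overlap.

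*Mdm2*, the ubiquitin ligase that limits p53, had the narrowest spread of the 10 genes in vehicle livers. Its lowest, median and highest vehicle values were 26.7, 30.6 and 35.6 CPM (30.5 ± 2.84, n = 7), and the INT-767-treated mice 1 to 4 had 26.4, 25.4, 21.3 and 22.4 CPM (23.9 ± 2.45, n = 4). The groups met at a gap between 26.4 and 26.7 CPM. The log2 fold change was -0.35 (SE 0.13, 95% interval -0.63 to -0.07), with an adjusted *p* of 0.0892 in edgeR. A two-sided exact Mann-Whitney test put the unadjusted *p* at 0.00606, the smallest that 4 against 7 mice allow. The gene passed the adjusted threshold of 0.05 in DESeq2 (-0.34, adjusted *p* = 0.0361) and with edgeR after scaling by library size only (-0.56, adjusted *p* = 0.0326) or by upper quartiles (-0.43, adjusted *p* = 0.0467). Without vehicle mouse 3 the edgeR value was -0.31 (adjusted *p* = 0.146). Library size only moved the median of all genes to -0.22.

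Among the genes of cell cycle arrest, *Cdkn1a* encodes p21, an inhibitor of cyclin-dependent kinases. It was at 21.6, 30.9 and 176 CPM (lowest, median and highest of vehicle, 50.3 ± 55.7) and at 66.7, 50.9, 49.1 and 36.3 CPM in INT-767-treated mice 1 to 4 (50.7 ± 12.5). The highest vehicle value was that of mouse 3, and the next was 38.2 CPM, below 3 of the 4 INT-767-treated livers. With all mice the log2 fold change was 0.01 (SE 0.54, edgeR adjusted *p* = 0.986), a value whose sign changed under other scalings and when single mice were left out. Without vehicle mouse 3 it was 0.79 (edgeR adjusted *p* = 0.0512), and the exact Mann-Whitney test, 0.164 with all mice, gave an unadjusted *p* of 0.0381. DESeq2, which replaced the value of vehicle mouse 3 as too distant from its model, called *Cdkn1a* higher (0.74, adjusted *p* = 0.0112). It replaced values of 17 genes in all, each of them in this mouse, *Gdf15* and *Btg2* included. By default DESeq2 replaces values only in groups at least as large as the vehicle group, so no INT-767-treated mouse was eligible. On GRCm38, 7.68% of the exon bases of *Cdkn1a* (chr17:29090976-29100727) overlap a gene on the opposite strand, and whether the counting used strand is not given in the sources used here.

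*Btg2*, an antiproliferative gene that recruits the machinery of mRNA deadenylation, showed the same mouse as the extreme. Vehicle values were 24.3, 42.0 and 323 CPM (77.9 ± 109) and those with INT-767 64.7, 30.0, 65.9 and 42.6 CPM (50.8 ± 17.5). The groups overlapped with and without vehicle mouse 3, after which the highest vehicle value was 51.3 CPM. The log2 fold change was -0.61 (SE 0.69, edgeR adjusted *p* = 0.534) with all mice and 0.46 (adjusted *p* = 0.260) without vehicle mouse 3, so that its sign rested on 1 liver.

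*Ccng1* encodes cyclin G1, which recruits a phosphatase to Mdm2. Its vehicle values were 33.3, 44.2 and 94.5 CPM (51.5 ± 22.4) and its INT-767 values 50.9, 86.9, 49.8 and 106 CPM (73.4 ± 27.7). All 4 INT-767-treated livers were above the vehicle median, but vehicle mouse 1 was above 3 of them. The log2 fold change of 0.51 (SE 0.31) did not pass the test (edgeR adjusted *p* = 0.257). It was 0.73 (adjusted *p* = 0.0616) without vehicle mouse 1 and 0.27 (adjusted *p* = 0.619) without INT-767-treated mouse 4.

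Of the genes tied to apoptosis, *Bax* encodes the pore-forming protein of the outer mitochondrial membrane. It was at 19.2, 25.1 and 30.8 CPM with vehicle (25.1 ± 3.48) and at 15.9, 16.2, 15.2 and 30.1 CPM with INT-767 (19.3 ± 7.15). INT-767-treated mice 1 to 3 were below every vehicle mouse, and mouse 4 was above 6 of the 7. The log2 fold change was -0.37 (SE 0.20, edgeR adjusted *p* = 0.212) with all mice and -0.68 (adjusted *p* = 0.0285) without INT-767-treated mouse 4, and -0.32 (adjusted *p* = 0.313) without vehicle mouse 3. Another gene model on the same strand, *Gm45808*, shares 12.2% of the exon bases of *Bax* (chr7:45461697-45466898), so that reads could be split between them.

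*Phlda3*, whose product blocks the survival kinase Akt, ranged from 4.84 to 13.6 CPM with vehicle (median 6.18) and was at 2.16, 6.77, 7.18 and 17.5 CPM with INT-767. The INT-767 group held both the lowest and the highest value of all 11 mice. The log2 fold change was 0.10 (SE 0.46, edgeR adjusted *p* = 0.885) and was 0.28 without vehicle mouse 1 and -0.59 without INT-767-treated mouse 4. *Eda2r*, a receptor of the tumor necrosis factor receptor family for an isoform of ectodysplasin A, was the least abundant member, at 1.25, 3.49 and 9.89 CPM with vehicle and 1.52, 1.80, 3.24 and 5.17 CPM with INT-767. Its highest value, in vehicle mouse 1, was far from the other 6, and the log2 fold change of -0.29 (SE 0.53, edgeR adjusted *p* = 0.712) became 0.16 without that mouse and -0.75 without INT-767-treated mouse 4. *Trp53inp1*, which promotes p53 activity and autophagy, was at 76.7, 103 and 165 CPM with vehicle and at 139, 89.0, 146 and 133 CPM with INT-767. Of its INT-767 values, 3 lay above 6 of the 7 vehicle values, and the log2 fold change was 0.25 (SE 0.22, edgeR adjusted *p* = 0.429), or 0.39 (adjusted *p* = 0.133) without vehicle mouse 1.

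Of the stress genes, *Sesn2* encodes a leucine-binding sestrin that restrains mTORC1 and is also an ATF4 target. It was at 6.72, 14.1 and 15.6 CPM with vehicle (12.3 ± 3.52) and at 11.8, 5.67, 14.4 and 5.10 CPM with INT-767 (9.24 ± 4.58). The INT-767 values formed a higher pair inside the vehicle range and a lower pair below every vehicle mouse, and the log2 fold change was -0.42 (SE 0.32, edgeR adjusted *p* = 0.361). It was -0.21 without INT-767-treated mouse 4, -0.26 without mouse 2 and -0.69 without mouse 3. *Gdf15* encodes a circulating cytokine that acts on the hindbrain receptor GFRAL with its partner RET. Vehicle values were 6.99, 9.34 and 121 CPM (25.01 ± 42.3), and INT-767 values were 7.62, 8.29, 10.0 and 9.74 CPM (8.91 ± 1.14). The INT-767 group lay wholly inside the range of the vehicle group even without vehicle mouse 3 (6.99 to 12.02 CPM). The log2 fold change of -1.48 (SE 0.84, edgeR adjusted *p* = 0.226) became -0.03 (adjusted *p* = 0.932) without that mouse.

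**Figure D2:**
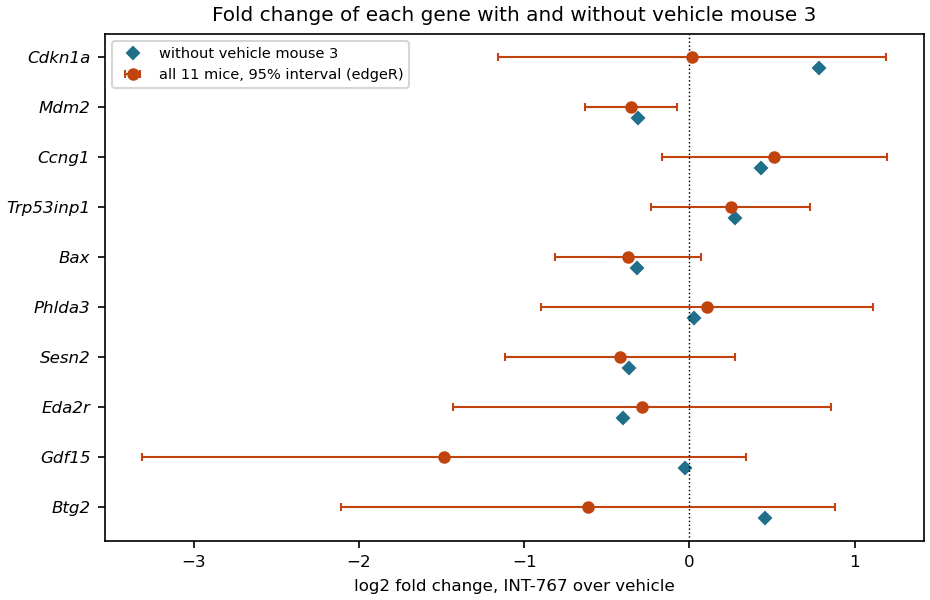
Log2 fold change (INT-767 over vehicle) of the 10 genes by edgeR, with 95% intervals for all 11 mice and as diamonds without vehicle mouse 3. *Cdkn1a* moves from 0.01 to 0.79, *Btg2* from -0.61 to 0.46 and *Gdf15* from -1.48 to -0.03, while *Mdm2* stays between -0.35 and -0.31.

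The genes differed widely in level. Per kilobase of exon, the vehicle medians were 15.96 CPM for *Bax*, 15.9 for *Trp53inp1*, 15.3 for *Btg2* and 12.6 for *Ccng1*, and the ranges of these 4 over the vehicle mice overlapped. *Cdkn1a* (8.69), *Mdm2* (6.01), *Gdf15* (5.04), *Sesn2* (4.06) and *Phlda3* (3.96) followed, each with a range that overlapped that of its neighbour. *Eda2r* was last, at 0.592 CPM per kilobase (0.212 to 1.68), with its range below the median of every other member.

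The high values of vehicle mouse 3 were shared by other genes that respond within minutes to hours of a stimulus. It was the highest vehicle mouse in 11 of 13 tested immediate-early genes, and in 8 of them (*Fos*, *Jun*, *Junb*, *Jund*, *Ier3*, *Zfp36*, *Dusp1* and *Nr4a1*) it lay far above the others by the criterion of Dixon. *Jun*, a subunit of AP-1, was at 313 CPM in that liver and between 45.4 and 61.1 CPM in the other 6 vehicle livers. Of 19 genes of the integrated stress response it was highest in 7, with *Atf3* at 75.8 CPM against 7.86 to 15.6 CPM and *Ppp1r15a* at 48.3 against 9.13 to 13.6 CPM. Of 29 further p53 targets it was highest in 6 (20.7%) and far above in *Plk3*, *Gadd45a* and *Ddit4*. In more of the 29 it was the lowest vehicle mouse, namely *Bbc3*, *Apaf1*, *Sesn1*, *Ddb2*, *Polk*, *Rrm2b*, *Ercc5* and *Ak1*. These further targets were therefore not raised as a group in this liver. It was also lowest in *Cebpg* and *Slc7a11* of the integrated stress response and in the immediate-early gene *Ier5*. *Ddit4*, a stress-induced inhibitor of mTORC1 that is also a p53 target, was at 324 CPM in vehicle mouse 3, between 11.8 and 19.1 CPM in the other vehicle mice, and at 94.1 CPM in INT-767-treated mouse 1. In none of 15 tested p53 regulators was vehicle mouse 3 the highest. Over all tested genes it lay far above the others in 1.34%. Genes named in this paragraph were picked after their values were seen.

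**Figure D3:**
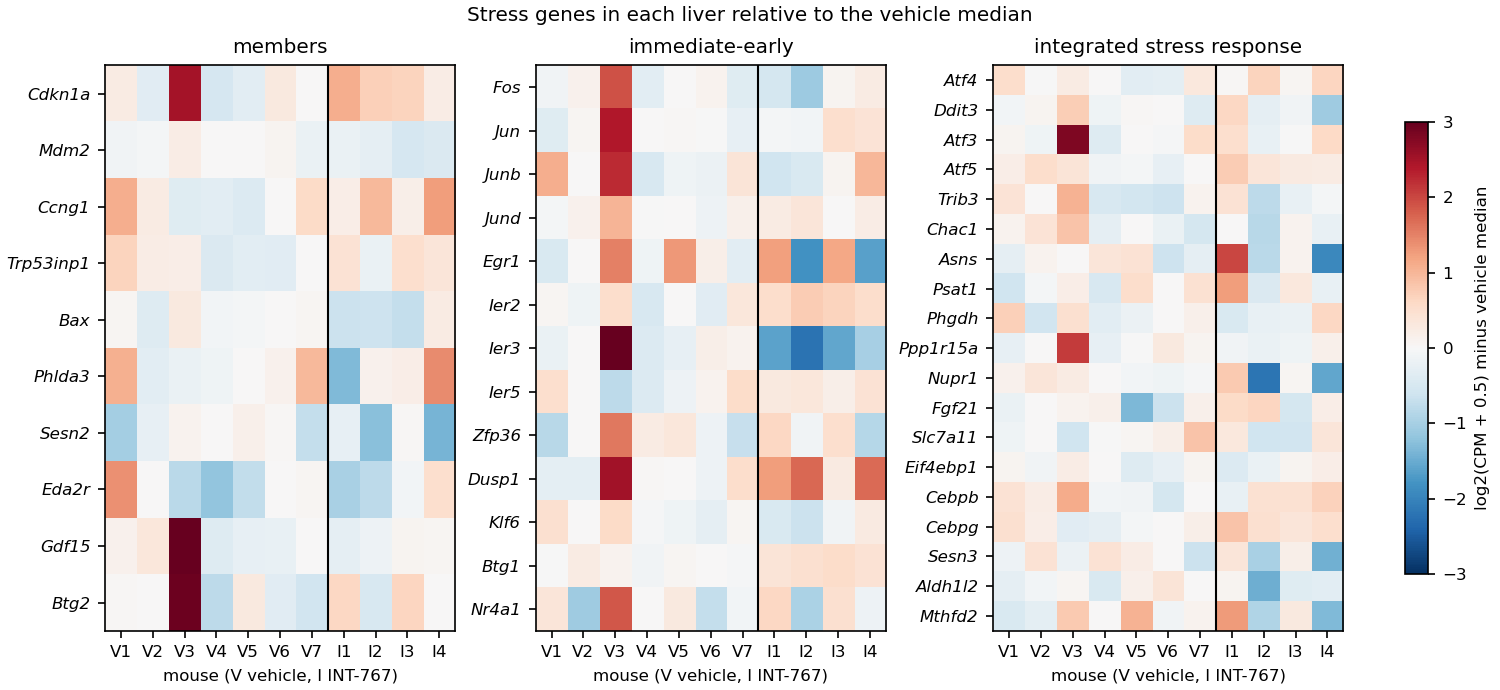
Log2(CPM + 0.5) minus the vehicle median in each liver (V vehicle, I INT-767) for the 10 members, 13 immediate-early genes and 19 genes of the integrated stress response; color stops at 3 in both directions. Vehicle mouse 3 is the highest vehicle mouse in 11 of 13 immediate-early genes and lies far above the others in *Cdkn1a*, *Gdf15* and *Btg2*, while *Ccng1* and *Phlda3* are not high there.

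The libraries also differed by transcript length. As the median log2 deviation of genes with the shortest transcripts minus that of genes with the longest (quintiles of 13835 genes), the tilt was 0.69 and 0.57 in INT-767-treated mice 4 and 2, 0.24 and 0.21 in vehicle mice 1 and 7, and between -0.49 and -0.07 in the other 7 livers. *Ccng1* had its 4 highest values and *Sesn2* its 4 lowest values in exactly these 4 livers. The transcripts of *Ccng1* and *Sesn2* are of like length (3512 and 3475 bases) but differ in GC content (40.8% and 58.7%). After an offset that took out the trends of single libraries with GC content and transcript length, the log2 fold change of *Ccng1* moved from 0.51 to 0.17, that of *Sesn2* from -0.42 to -0.09 and that of *Trp53inp1* from 0.25 to -0.03, and *Bax* was called lower (-0.50, edgeR adjusted *p* = 0.0349). *Mdm2* was little moved (-0.36, edgeR adjusted *p* = 0.0698).

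**Figure D4:**
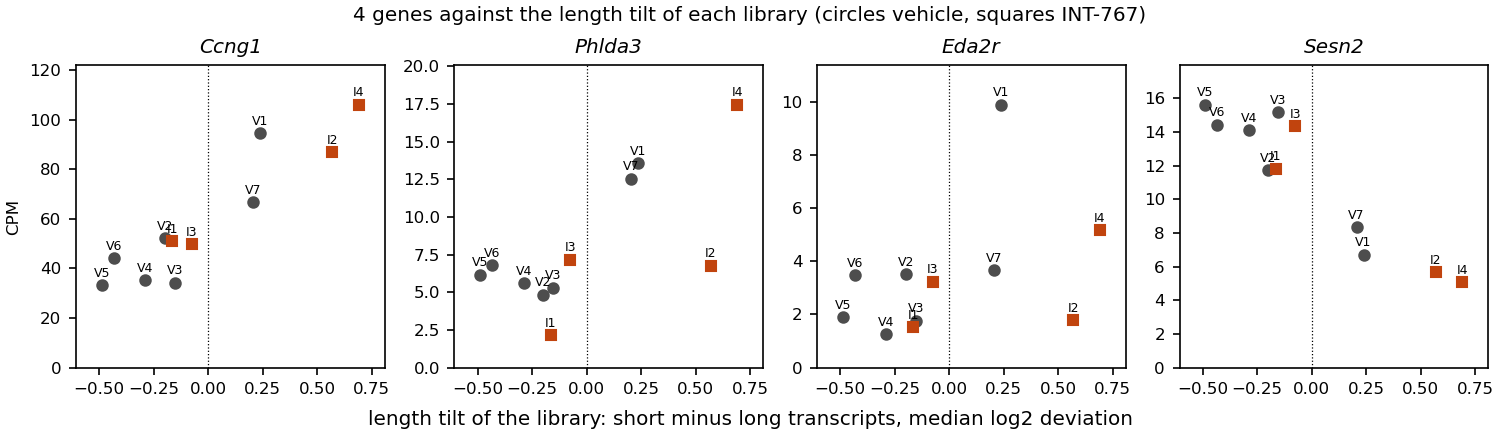
CPM of *Ccng1*, *Phlda3*, *Eda2r* and *Sesn2* in each liver (circles vehicle, squares INT-767) against the length tilt of its library on the log2 scale. The 4 livers right of 0 (vehicle mice 1 and 7, INT-767-treated mice 2 and 4) are the highest in *Ccng1* and the lowest in *Sesn2*.

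The rest of the pathway is read beside the 9.72% of all tested genes that edgeR called and the 32.9% at an unadjusted *p* under 0.05. Of 15 tested regulators of p53 none was called by edgeR or limma-voom and 1 by DESeq2 (*Chek1*, a checkpoint kinase gene, lower), with a median log2 fold change of -0.37 and 2 genes at an unadjusted *p* under 0.05. *Trp53* itself was at 20.4 ± 6.72 CPM with vehicle and 13.3 ± 6.30 CPM with INT-767 (-0.63, SE 0.34, edgeR adjusted *p* = 0.210). *Mdm4*, the relative of Mdm2 that masks p53, had -0.37 (adjusted *p* = 0.299) and the p53 phosphatase gene *Ppm1d* had 0.02 (adjusted *p* = 0.953) in the same edgeR fit. Of 29 tested further p53 targets, *Tnfrsf10b*, a death receptor, was called lower at a low level (1.76 ± 0.340 against 0.696 ± 0.350 CPM, -1.24, edgeR adjusted *p* = 0.0340) and 28 were not called by edgeR, with a median of -0.12 and 8 of the 29 at an unadjusted *p* under 0.05. limma-voom called *Tnfrsf10b* lower, and DESeq2 called 4 lower (*Tnfrsf10b*, *Apaf1*, *Plk3* and *Sfn*). The edgeR call of *Tnfrsf10b* was lost in 8 of 19 alternative fits. None of 13 tested genes of the Bcl-2 family (median -0.18), 4 other inhibitors of cyclin-dependent kinases (0.35) and 19 genes of the integrated stress response (-0.11) was called by edgeR or limma-voom. Unadjusted *p* were under 0.05 for 6, 1 and 1 of them, and DESeq2 called *Bad* and *Cebpg* higher.

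Genes of the cell cycle that p21 is known to repress through the DREAM complex held the most calls of the p53-related lists. Of 17 tested, 8 were called lower by edgeR and none higher, with a median of -1.37, where 4.68% of all tested genes were called lower. limma-voom called 6 lower and DESeq2 10. Of the 8 genes, *Ccna2* and *Birc5* each lost the edgeR call in 10 of 19 alternative fits. *Foxm1*, a transcription factor of mitotic genes, was at 2.19 ± 0.660 CPM with vehicle and 0.525 ± 0.226 CPM with INT-767 (-2.004, SE 0.36, edgeR adjusted *p* = 0.00774). *Mki67*, the proliferation marker, fell from 12.3 ± 3.80 to 3.00 ± 1.68 CPM (-2.01, SE 0.42, edgeR adjusted *p* = 0.0146). The checkpoint gene *Bub1b* (-1.69), the replication gene *Mcm5* (-1.55) and the kinase gene *Aurkb* (-2.07) were also called lower by edgeR, at adjusted *p* of 0.00907, 0.0230 and 0.0237. Without vehicle mouse 3, 7 of the 17 genes were called lower, and without INT-767-treated mouse 2, 3 were.

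Of 12 tested relatives of the members 2 were called higher, *Tob1* and *Btg1*, where 5.04% of all tested genes were. Both belong with *Btg2* to the Btg and Tob family of antiproliferative proteins, in which *Tob2* was not called (0.13, edgeR adjusted *p* = 0.682) and *Btg3* was not tested. *Tob1* was at 83.9, 112 and 124 CPM (lowest, median and highest of vehicle) and at 224, 223, 141 and 187 CPM with INT-767 (0.89, SE 0.17, edgeR adjusted *p* = 0.00884). *Btg1* was at 43.3, 46.9 and 55.6 CPM with vehicle and at 61.9, 65.6, 69.4 and 63.1 CPM with INT-767 (0.43, SE 0.11, edgeR adjusted *p* = 0.0340), and was 1 of 13 tested immediate-early genes (median -0.14). With all mice it was the only one of them called by edgeR, whereas DESeq2 called 3, *Ier2* and *Btg1* higher and *Ier3* lower. Without vehicle mouse 3, edgeR called 2 of the 13 higher and 1 lower, and without INT-767-treated mouse 2 it called 0. In both *Tob1* and *Btg1* every INT-767-treated liver was above every vehicle liver, and vehicle mouse 3 was not the highest. The call of *Btg1* was lost in 13 of 19 alternative fits (adjusted *p* up to 0.213, with library size only), and that of *Tob1* in none of them. Of the ligands and receptors, *Eda* was tested (7.53 ± 1.23 against 6.07 ± 1.497 CPM, -0.32, edgeR adjusted *p* = 0.277), *Gfral* had 0 counts in all 11 livers, and *Ret*, *Edar* and *Edaradd* had 14, 13 and 32 counts in total.

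The marker lists were used to check the tissue, and of their sums only that of the stellate cell list separated the groups. The hepatocyte markers, led by *Alb*, were abundant in every liver and none of the 6 was called by edgeR (3 at an unadjusted *p* under 0.05; DESeq2 called *Alb*, *Apoa1* and *Cps1* higher). Of 8 stellate cell and myofibroblast markers, *Col1a1* (-2.96), *Col1a2* (-2.35) and *Pdgfrb* (-1.31) were called lower by edgeR (adjusted *p* of 0.0297, 0.0272 and 0.0302), where 4.68% of all tested genes were. limma-voom and DESeq2 each called 4 lower, these 3 and *Col3a1*. Their list, led by *Col3a1*, summed to 694 ± 367 CPM with vehicle and 219 ± 87.9 CPM with INT-767. The lowest, median and highest vehicle sums were 341, 671 and 1275 CPM and those of INT-767-treated mice 1 to 4 were 219, 104, 235 and 318 CPM, without overlap. Collagens made up much of this sum, with vehicle means of 158, 158 and 289 CPM for *Col1a1*, *Col1a2* and *Col3a1*. *Acta2* (-0.63), *Des* (-0.47) and *Lrat* (0.05, the only 1 of the 8 above 0) were not called by edgeR (adjusted *p* of 0.173, 0.149 and 0.847). The calls of *Col1a1*, *Col1a2* and *Pdgfrb* were lost in 7, 5 and 6 of 19 alternative fits, all 3 of them without INT-767-treated mouse 2 and *Col1a1* and *Pdgfrb* without vehicle mouse 3. Of 7 macrophage markers, *Csf1r* (-1.14) and *Cd68* (-1.16) were called lower (edgeR adjusted *p* of 0.00498 and 0.00943), with 5 at an unadjusted *p* under 0.05, and *Clec4f*, a marker of Kupffer cells, had 0.53 (adjusted *p* = 0.384). limma-voom called 3 of the 7 lower and DESeq2 5. This list, led by *Lyz2*, summed to 509, 667 and 748 CPM with vehicle and to 367, 323, 325 and 705 CPM with INT-767. Of 3 tested neutrophil markers, *Csf3r* was called lower (-1.49, edgeR adjusted *p* = 0.0173), a call lost in 1 of 19 alternative fits (without INT-767-treated mouse 2). *S100a8* (0.31) and *S100a9* (0.46) were not called. The highest values of both genes were those of INT-767-treated mouse 4 (9.97 and 15.7 CPM), and the log2 fold changes without it were -0.60 and -0.99. None of the endothelial, cholangiocyte and lymphocyte markers was called by edgeR (2, 3 and 1 at an unadjusted *p* under 0.05), while DESeq2 called the cholangiocyte markers *Krt19* and *Sox9* lower. No marker of these lists was at 0 in all livers. The part of these cell types in the values of *Mdm2*, *Bax* or the cell cycle genes was not tested.

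**Figure D5:**
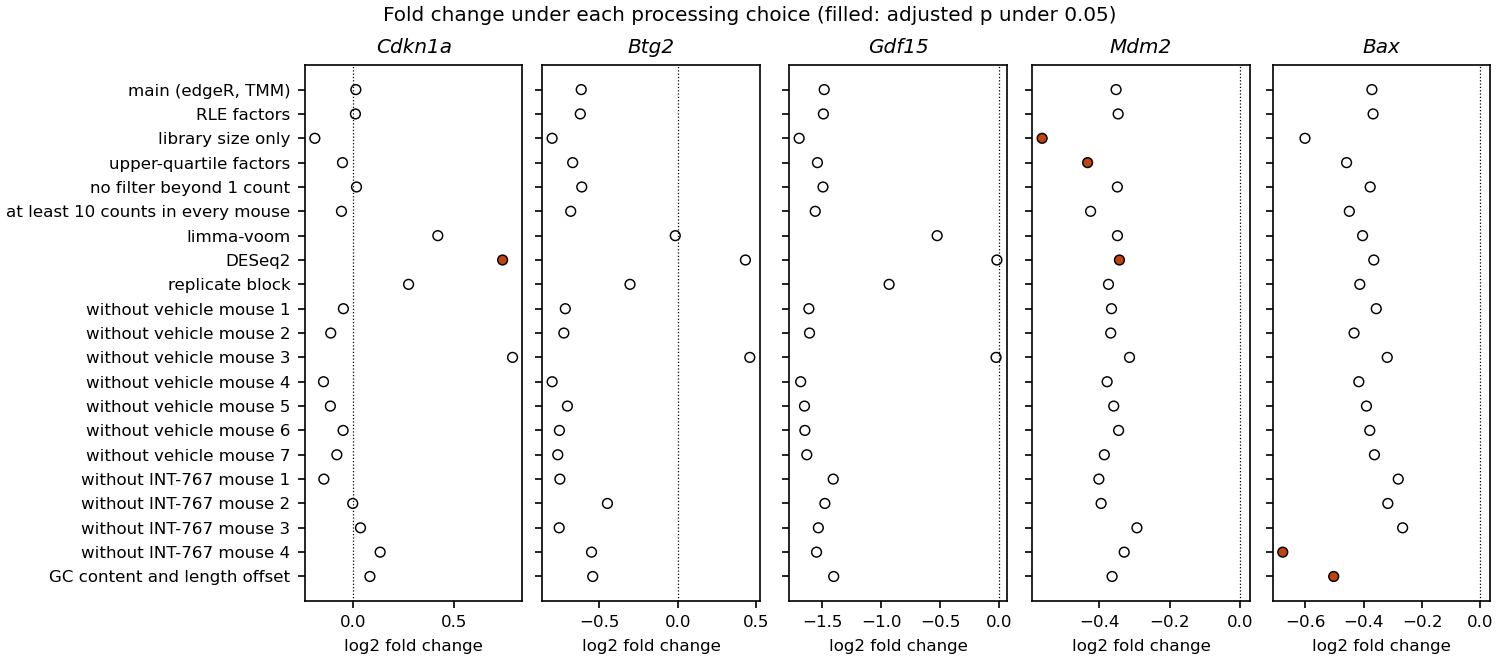
Log2 fold change of *Cdkn1a*, *Btg2*, *Gdf15*, *Mdm2* and *Bax* under each processing choice (rows), with filled points where the adjusted *p* was under 0.05. *Cdkn1a* and *Btg2* lie on both sides of 0, and *Mdm2* and *Bax* lie below 0 throughout.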

How the data were processed

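The authors prepared strand-specific libraries from liver mRNA (75 sequencing cycles) and mapped them with STAR to GRCm38 and Ensembl release 84. The STAR version is 2.5.2a in the supplementary methods and 2.4.0 in the submitters' processing notes. They deposited raw read counts per gene, without normalization, and how these were counted is not given in the sources used here. Library totals ran from 7381211 to 16022459 counts. Each sample is 1 mouse.

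Counts were fitted in edgeR 4.0.16 (R 4.3.3) with TMM factors, filterByExpr (minimum count 10, minimum total 15), glmQLFit (robust) and glmQLFTest, treatment as the only term, and Benjamini-Hochberg adjustment over 13880 genes. Standard errors follow from the fold change and the F statistic. Members were further tested one by one with an exact Mann-Whitney test (two-sided) over all 330 assignments of the mice, unadjusted over the 10 genes. Alternatives were other scalings and filters, limma-voom 3.58.1, DESeq2 1.42.0, a block for the mouse number, leaving out each mouse, a GC content and length offset (lowess span 0.3) and a threshold of 0.01. The tools were tested on simulated data. The members and lists were chosen with earlier results of these data known. Besides the members, up to 5 called genes of each list were named, with *Trp53*, *Mdm4*, *Ppm1d* and the ligand and receptor genes whatever their values. Other list genes in the text (those of vehicle mouse 3, those called by DESeq2 only, *Col3a1*, *Acta2*, *Des*, *Lrat*, *Clec4f*, *S100a8*, *S100a9*, *Ccna2*, *Birc5*, *Tob2* and *Btg3*) fall outside this rule and were picked after their values were seen. Genes were placed with GENCODE M21, and promoter sequences are from RefSeq (GRCm38.p6).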

Additional observations from a re-analysis of the deposited data

Results flagged for a closer look

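Values were examined for a mouse lying far from the rest of its group by Dixon's criterion, which chance alone meets in about 1 in 20 groups, and 8 of 78 group and value combinations met it. The 78 include those of *Gfral*, *Ret*, *Edar* and *Edaradd*, which had too few counts and were passed over. Vehicle mouse 3 lay far above the other 6 vehicle mice in *Cdkn1a* (176 CPM), *Gdf15* (121 CPM) and *Btg2* (323 CPM). Vehicle mouse 1 lay far above in *Eda2r* (9.89 CPM). INT-767-treated mouse 4 lay far above the other 3 in *Bax* (30.1 CPM), in the summed macrophage markers (705 CPM) and in the summed neutrophil markers (28.3 CPM). Vehicle mouse 6 lay far above in the summed lymphocyte markers (15.98 CPM).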

How the results depend on the processing

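Of the members, *Mdm2*, *Bax*, *Sesn2* and *Gdf15* kept a negative and *Ccng1* a positive log2 fold change under all 21 alternatives. Of these, the threshold of 0.01 reuses the main fold changes. The value of *Gdf15*, -1.48 in the main fit, was -0.53 in limma-voom and -0.019 in DESeq2. Members called lower by edgeR were 0 with all mice and 1 with library size only, with upper-quartile factors (*Mdm2* in both) and with the GC content and length offset (*Bax*), and 0 to 1 when single mice were left out. DESeq2 called 1 lower (*Mdm2*) and 1 higher (*Cdkn1a*), where edgeR called 0 higher. The exact rank test had *p* under 0.05 in 1 member with all mice, in 2 with library size only and in 1 to 2 when single mice were left out. *Cdkn1a* turned negative with library size only (-0.19), upper-quartile factors (-0.051) and at least 10 counts in every mouse (-0.056), and was between -0.14 and 0.79 when single mice were left out. *Phlda3* turned negative with library size only (-0.15), limma-voom (-0.19) and the offset (-0.0067), and was between -0.59 and 0.44 when single mice were left out. *Trp53inp1* was -0.035 with the offset, *Btg2* 0.43 in DESeq2 and up to 0.46 without 1 mouse (lowest -0.80), and *Eda2r* between -0.75 and 0.16 without 1 mouse. Beyond the vehicle mouse 3 values given above, the cause of these changes was not tested.

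Over all genes, 700 were called higher and 649 lower. The counts were 331 and 1026 with library size only (24.4% of calls higher, against 51.9%; 36.5% with upper-quartile factors), 1443 and 1368 in DESeq2, and 158 and 87 at a threshold of 0.01; 1093 were higher with the offset. Leaving out single mice gave 164 to 1906 higher and 110 to 1370 lower, the fewest without INT-767-treated mouse 2 and the most without vehicle mouse 1. With the mouse number as a block, edgeR called 0 genes higher and 0 lower (1347 at an unadjusted *p* under 0.05). The 19 alternative fits counted for single genes above leave the block out. The shared numbers do not pair the mice: deviations of same-numbered mice correlated at -0.73, 0.24, 0.21 and -0.52. With 4 treated mice, the intervals leave room for changes of *Cdkn1a* between -1.16 and 1.19.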
